A study of Mus musculus with 4 samples.

Results

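Very long genes, here 212 autosomal protein-coding genes that span at least 500 kb of the mouse genome (mm10, RefSeq gene ends), were followed through their interiors by whole-genome bisulfite sequencing. They were chosen by annotated length alone, out of 20661 autosomal protein-coding genes. Of those, 12545 had an interior that could be measured: the 212 members, 12316 bodies of other genes set against them, and 17 genes left out of both groups by name, 3 of them as long as the members. The interior, called the body, began 5 kb inside each annotated end and was cut into 10 kb windows holding at least 10 CpGs. Member genes ran from 501.8 kb (Edil3) to 2271 kb (Ptprd), with a median of 735.3 kb, and 55 reached 1000 kb.

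The samples were mouse embryonic stem cells homozygous for a floxed allele of Ogt (Ogt fl/fl), grown on feeder fibroblasts with LIF and serum replacement. In the 2 inducible knockout samples (iKO) the cells received 4-hydroxytamoxifen for 6 days and were sorted for YFP, while the 2 control samples carried the same alleles and were grown without the drug. The labels also describe a sort of viable cells to remove feeders. They give CD90.2 as the stem cell marker and CD326 as the one excluded, although CD326 (EpCAM) is usually found on stem cells and CD90 on fibroblasts. Which cells that sort kept was not tested here. Drug, recombination and the YFP sort therefore coincide with the knockout and cannot be told apart, and the source of Cre is not given in the sources used here. The labels do not say whether the replicates were separate cultures, so p-values measure only the spread between these samples, which may be technical.

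Ogt encodes O-GlcNAc transferase, the enzyme that attaches single sugar residues to nuclear and cytoplasmic proteins, among them the TET proteins that oxidise methylated cytosine. The body of a mammalian gene is usually densely methylated in these cells, while its CpG-rich start is usually free of methylation. Genes of this length include many that act in neurons: cell adhesion molecules, axon guidance receptors, ion channels and scaffolds of the synapse. Many lie in CpG-poor, late-replicating chromatin, and several are known as common fragile sites. Bisulfite sequencing counts methylated and hydroxymethylated cytosine together, so "methylation level" below means the percentage of reads that kept a C at CpGs, whichever of these marks protected it.

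The libraries held 64273609 to 79929994 reads over CpGs. Of the 20677079 positions listed in any library, 16341360 (79.0%) had at least 1 read in all 4 and were used, at a mean depth of 3.46 to 4.22 reads. Single CpGs are therefore imprecise, but a long body pools many: 1675 to 11479 CpGs and 5808 to 50323 reads per library, with a median of 16004 reads against 785 for the other bodies. Over all 441 CpGs of Ogt listed in any library, reads per CpG relative to chromosome X were 1.25 and 1.20 in iKO against 1.28 and 1.19 in controls, so no loss of the whole gene was seen. These counts do not test a deletion of part of it. The starts of the pluripotency genes Pou5f1 and Nanog were methylated at no more than 14.7% in any library. Methylation marks no cell type by itself, so the stem cell label was not tested further.

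The sequences at the starts show the contrast the bodies are measured against. Lsamp, a synaptic adhesion protein of the immunoglobulin superfamily, is the third longest member, and Ptprg, a receptor tyrosine phosphatase, has an outer start and a second annotated start 636.5 kb inside the gene. Each run below holds the 250 bases before an annotated start, 5′ to 3′ on the gene's strand, from RefSeq on GRCm38.p6 (mm10), with every CG in capitals.

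Lsamp outer start, chr16:39984114-39984363, plus strand: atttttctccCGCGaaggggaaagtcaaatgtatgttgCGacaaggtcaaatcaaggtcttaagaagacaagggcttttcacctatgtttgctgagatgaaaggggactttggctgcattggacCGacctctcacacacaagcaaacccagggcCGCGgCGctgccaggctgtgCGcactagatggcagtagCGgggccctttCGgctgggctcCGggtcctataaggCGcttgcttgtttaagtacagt
Ptprg outer start, chr14:11553303-11553552, plus strand: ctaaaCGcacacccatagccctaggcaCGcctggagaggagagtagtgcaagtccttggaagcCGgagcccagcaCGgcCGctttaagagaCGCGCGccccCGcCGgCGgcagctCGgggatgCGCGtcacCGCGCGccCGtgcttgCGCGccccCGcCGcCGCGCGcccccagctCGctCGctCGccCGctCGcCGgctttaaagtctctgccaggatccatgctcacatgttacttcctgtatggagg
Ptprg inner start, chr14:12189693-12189942, plus strand: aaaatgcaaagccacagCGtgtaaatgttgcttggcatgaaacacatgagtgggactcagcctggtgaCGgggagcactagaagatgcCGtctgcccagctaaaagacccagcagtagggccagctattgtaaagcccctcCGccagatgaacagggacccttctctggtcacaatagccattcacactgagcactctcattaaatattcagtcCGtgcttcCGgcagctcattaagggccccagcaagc

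The outer Ptprg start holds 31 CG, and over its 31 measured CpGs 0, 0, 0 and 1.69% of reads were methylated in iKO 1, iKO 2, control 1 and control 2, from 56 to 81 reads. The inner one holds 6 CG and its 5 measured CpGs stood at 0, 44.4, 46.2 and 58.8%, from only 10 to 18 reads. Both iKO values lie below both controls there, but the iKO libraries differ from each other by more than the controls do. The Lsamp start, with 12 CG, had 3.23% in both iKO libraries and 14.3 and 7.14% in the controls, from 14 to 31 reads over 11 CpGs. Among 267 annotated starts of the 167 members listed in that RefSeq table, 31.8% held 20 or more CG in 300 bases (250 before and 50 after the start), against 26.5% of all 32851 starts listed. The median number of CG was 12 for members and 7 for all. A CG reads the same on both strands.

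The first comparison asked how methylation of these bodies differed between iKO and control. Every one of the 212 bodies was less methylated in both iKO libraries than in either control. That order was found in 89.3% of all 12545 bodies, with 83.4% in genes under 50 kb and 99.9% in genes from 200 to 500 kb. Pooled over the 951074 body CpGs, the level was 72.5% in iKO 1, 70.1% in iKO 2, 76.8% in control 1 and 81.0% in control 2. The iKO mean was 71.3% ± 1.70 and the control mean 78.9% ± 2.997 (SD, n = 2 each), a difference of -7.58 points, about 3 times the pooled SD of 2.44. The exact permutation test (two-sided) gave p = 0.33, the smallest value that 2 against 2 libraries allow. Sequence outside all annotated genes differed by a like amount, from 75.02% ± 2.86 in controls to 67.3% ± 1.74 in iKO, -7.71 points.

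The replicates did not coincide. Control 1 lay below control 2 in every member, with a median of -4.19 points for control 1 minus control 2, and iKO 1 above iKO 2 in every member, by a median of 2.41 points. The nearest pair of opposite groups, iKO 1 and control 1, differed by -4.26 points pooled, and the farthest, iKO 2 and control 2, by -10.9. Without control 2 the pooled difference was -5.46 points, and without control 1 it was -9.70.

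**Figure D1:**
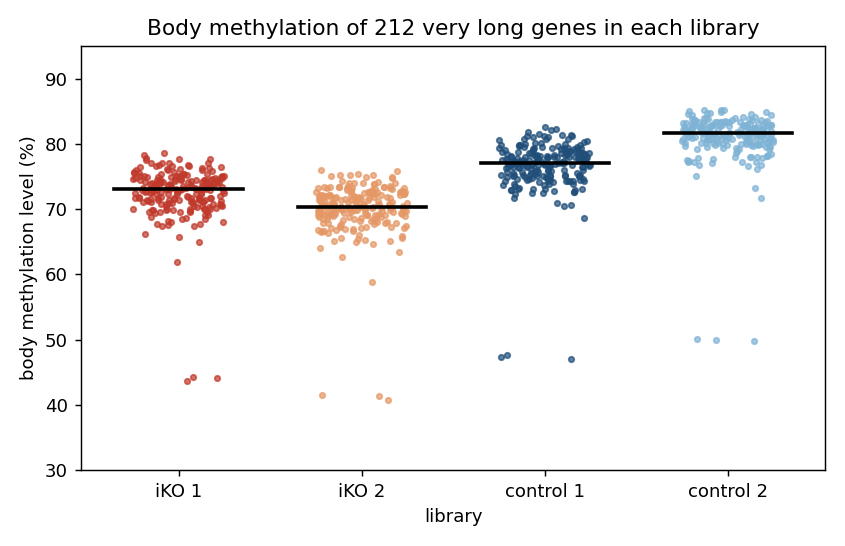
Body methylation level in percent (vertical axis) of the 212 very long genes in each of the 4 libraries (horizontal axis, points spread sideways at random), with the median over genes as a black line. The medians are 73.0, 70.4, 77.1 and 81.6%, and the 3 points near 40 to 50% in each library are overlapping protocadherin gene models.

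An adjusted p under 0.05 was reached by all 212 members (quasi-binomial test with limma-moderated dispersion, Benjamini-Hochberg over all bodies; range 0.00688 to 0.0287), against 49.8% of all bodies. That count depended on the test: it was 186 members with edgeR (87.7%, against 69.5% of all bodies) and 110 with limma on logit levels (51.9%, against 58.7%). Their larger read numbers go with that count: members had about 20 times the reads of other bodies, and the part of depth in it was not tested. In the quasi-binomial test each member's own dispersion (median 54.1) was drawn towards a prior of 4.17 shared by all bodies. Its p-values therefore rest partly on the spread of other bodies, which was smaller than the members' own. A call also required 10 points, and 3 members (1.42%) passed, against 17.6% of all bodies. Members still passed less often when any single library other than control 1 was left out. Without control 1 the shares were alike, and the pooled difference of the members was then -9.70 points, near the cut. Differences also spread less between members than over all bodies (SD 0.794 against 3.71 points). The part of that spread in the contrast was not tested.

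The differences of single members lay close together, between -10.43 and -5.71 points, with a median of -7.56. The SD between members was 0.794 points, larger than their median counting error of 0.338 points. Over all bodies the median was -8.51 points and the range -36.7 to 24.0. In 175 of the 212 members the difference fell between -8.5 and -6.5 points. The order of the members was poorly shared between replicates: the difference from replicate 1 of each group and that from replicate 2 correlated at Pearson r = 0.170 (Spearman 0.072) over 212 genes. Crossing the replicates gave r = 0.135. Both correlations are descriptions across genes that share 4 libraries.

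**Figure D2:**
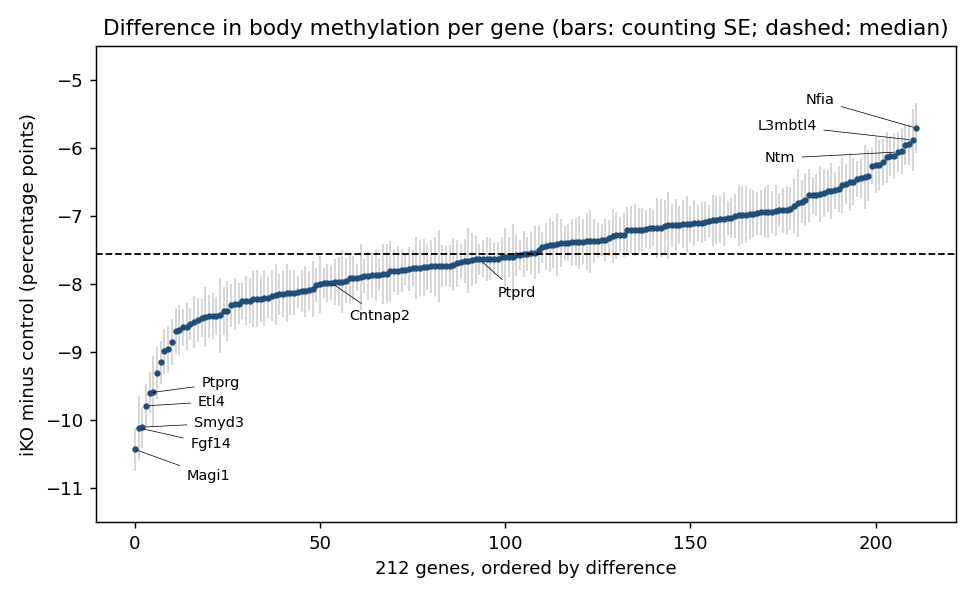
Difference in body methylation, iKO mean minus control mean in percentage points (vertical axis, which does not reach 0), for each of the 212 genes ordered by size (horizontal axis). Grey bars are ± 1 counting standard error and the dashed line is the median of -7.56; the axis runs from Magi1 at -10.43 to Nfia at -5.71, with most genes between -8.5 and -6.5.

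The 3 members past 10 points were Magi1, Fgf14 and Smyd3. Magi1 encodes a scaffold of cell junctions and occupies 608.5 kb of chromosome 6 (gene 14924, chr6:93675453-94283929). Its body stood at 65.8 and 63.4% in iKO against 72.9 and 77.1% in controls, a difference of -10.43 points (adjusted p = 0.00688). Fgf14 encodes an intracellular fibroblast growth factor homologue that binds voltage-gated sodium channels, on chr14:123974441-124677686. It stood at 66.2 and 64.1% against 72.6 and 77.9%, -10.11 points (adjusted p = 0.00831). Smyd3, a lysine methyltransferase gene on chr1:178951960-179518053, stood at 70.9 and 67.1% against 77.1 and 81.1%, -10.10 points (adjusted p = 0.00746). In all 3 genes both iKO libraries lay below both controls, as in every member and 89.3% of all bodies.

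These calls sit at the threshold. No member was called without iKO 2 or without control 2, where 4.43 and 7.10% of all bodies were. Without iKO 1 there were 16 (7.55%, against 18.7% of all bodies). With all libraries, Magi1 came to -9.93 points when CpGs inside other annotated genes were left out, and Fgf14 came to -9.99 when reads were thinned to the shallowest library. Etl4, a gene first found as an enhancer-trap locus, followed at -9.79 points, with 61.9 and 58.9% against 68.7 and 71.7%. Ptprg came next at -9.60 points, with 68.7 and 65.2% against 75.1 and 78.0%. Cpq, encoding a secreted carboxypeptidase, stood at 73.1 and 69.7% against 78.8 and 83.1%, -9.58 points. For each of these genes leaving out iKO 1 or control 1 brought the difference past 10 points.

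At the other end, Nfia had the smallest difference. It encodes a nuclear factor I transcription factor (gene 18027, chr4:97578066-98118876). Its body stood at 72.5 and 70.0% in iKO and 75.04 and 78.9% in controls, -5.71 points. L3mbtl4, whose product carries the MBT repeats of chromatin-binding proteins, followed at -5.88 points, with 76.7 and 74.0% against 79.8 and 82.7%. Grid1, a glutamate receptor delta subunit, stood at 76.0 and 72.9% against 78.1 and 82.9%, -6.04 points. Ntm, the IgLON adhesion protein neurotrimin, stood at 74.6 and 73.3% against 78.3 and 81.7%, -6.06 points. In each of these, as in every member, the higher iKO library lay below the lower control, here by 2 to 4 points.

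The remaining members with the smallest differences were 3 models on chromosome 18, Gm37013, Gm38666 and Gm38667, which overlap one another across the protocadherin alpha to gamma clusters and are therefore not independent. Protocadherin clusters encode neuronal surface proteins chosen from arrays of alternative first exons, each with its own CpG-rich promoter. These bodies were the least methylated of all members. Gm37013 stood at 43.7 and 40.8% in iKO against 47.0 and 49.7% in controls, -6.12 points. The other two differed by -5.95 points each.

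Of the 8 longest genes, 7 had differences within the band of -8.5 to -6.5 points and Csmd1 a smaller one. Ptprd, a receptor tyrosine phosphatase of synapses and the longest at 2271 kb (chr4:75941237-78211742), stood at 72.9, 70.0, 76.5 and 81.6% in iKO 1, iKO 2, control 1 and control 2, a difference of -7.64 points over 9066 CpGs. Cntnap2, encoding the neurexin-like adhesion protein CASPR2, stood at 70.7, 68.0, 74.9 and 79.8%, -7.98 points. Lsamp stood at 72.8, 70.6, 76.7 and 81.8%, -7.57 points. Lrp1b, a large receptor of the LDL receptor family, differed by -7.40 points, and Macrod2, an ADP-ribose hydrolase gene, by -7.35. Dlg2, encoding a postsynaptic scaffold, differed by -8.01 points, Csmd1, a complement-regulating membrane protein, by -6.27, and Nrxn3, a presynaptic neurexin, by -7.11. All 8 had groups that did not overlap, as had every member and 89.3% of all bodies.

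Genes were also set into 7 lists by what they encode, which held 140 of the 212 members, some in more than 1 list. The list medians spanned less than 0.5 points. Since all 212 members had an adjusted p under 0.05 in the quasi-binomial test and groups that did not overlap (49.8 and 89.3% of all bodies), those counts do not tell the lists apart. The median over all bodies was -8.51 points. Neuronal adhesion molecules and synapse organisers (41 genes, among them Cntnap2 and Lsamp) had a median of -7.57 points and a range of -10.43 to -6.06. Axon guidance receptors and ligands (7 genes) had the smallest median, -7.15 points. In that list the Slit receptor Robo2 stood at 73.5 and 70.4% against 77.1 and 82.5%, -7.88 points, and the netrin receptor Dcc at 75.2 and 72.2% against 78.0 and 83.4%, -6.93 points.

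Ion channels and transmitter receptors (24 genes) had a median of -7.37 points. Dpp10, an auxiliary subunit of potassium channels, differed by -6.96 points. Kinases, phosphatases and second messenger genes (27) had a median of -7.42 points, with the cyclic AMP phosphodiesterase gene Pde4d at -8.58. Transcription, chromatin and RNA-binding genes (18) had a median of -7.48 points and held both the third lowest member, Smyd3, and the highest, Nfia. In that list Auts2, a transcriptional regulator, stood at -8.11 points and the RNA-binding protein gene Rbms3 at -7.27. Extracellular matrix, glycan and membrane enzyme genes (17) had a median of -7.61 points, with the glypican gene Gpc5 at -7.39.

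Genes known as common fragile sites (28), which overlap the other lists, had a median of -7.57 points and a range of -8.69 to -6.27. The 72 members in no list had a median of -7.63 points. Outside chromosome 18 the mean level over the 4 libraries ran from 65.3 to 80.4% in 207 members (SD 2.43), a wider spread than that of their differences (SD 0.780). Neither the difference nor the level followed length within the long genes (r = 0.025 and 0.002 over 212 genes), or the difference CpG density (r = -0.038), all as descriptions across genes.

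The second comparison set the long genes against all other bodies, inside each library. Long genes were the more methylated in every library, by 4.29 points in iKO 1, 4.196 in iKO 2, 2.98 in control 1 and 3.77 in control 2. Other bodies stood at 67.1% ± 1.64 in iKO against 75.5% ± 2.44 in controls (SD, n = 2 each), which is -8.45 points. The gap in points was thus 0.872 wider in iKO, more than its pooled SD of 0.397, and the groups did not overlap (exact permutation p = 0.33, the smallest possible). It was 0.477 points wider without control 1 and 1.27 without control 2. With 5 reads in every library, which leaves 17 members, it turned to -0.101 points and the groups overlapped (exact permutation p = 0.67). On the logit scale, which allows for the higher starting level, the gap differed by 0.005 (pooled SD 0.035, exact permutation p = 1). With other bodies weighted to the same distribution of CpGs per window the gap itself was smaller, 1.14 to 1.92 points, and 0.632 points wider in iKO (pooled SD 0.116).

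This belonged to a gradient over all gene lengths. From bodies of genes under 50 kb through 50 to 100, 100 to 200, 200 to 500 and 500 to 1000 kb to those of 1000 kb or more, the control mean rose from 73.1 to 74.7, 75.7, 77.6, 78.6 and 79.4%. The iKO mean rose as well, from 64.2 to 71.9%. The difference narrowed from -8.87 to -8.78, -8.41, -7.93, -7.60 and -7.55 points. On the logit scale it kept no such order, lying between -0.425 and -0.409 in all 6 classes. CpGs per 10 kb fell over the same classes from 84.6 to 48.4, and the part of CpG density in the gradient was not separated further. Around the 500 kb limit, the shortest members, Edil3, Dock1 and Samd12, differed by -7.74, -7.42 and -8.22 points. The longest genes below it, Dnm3, Lrrc7 and Cacna1e, differed by -7.20, -7.79 and -6.84.

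**Figure D3:**
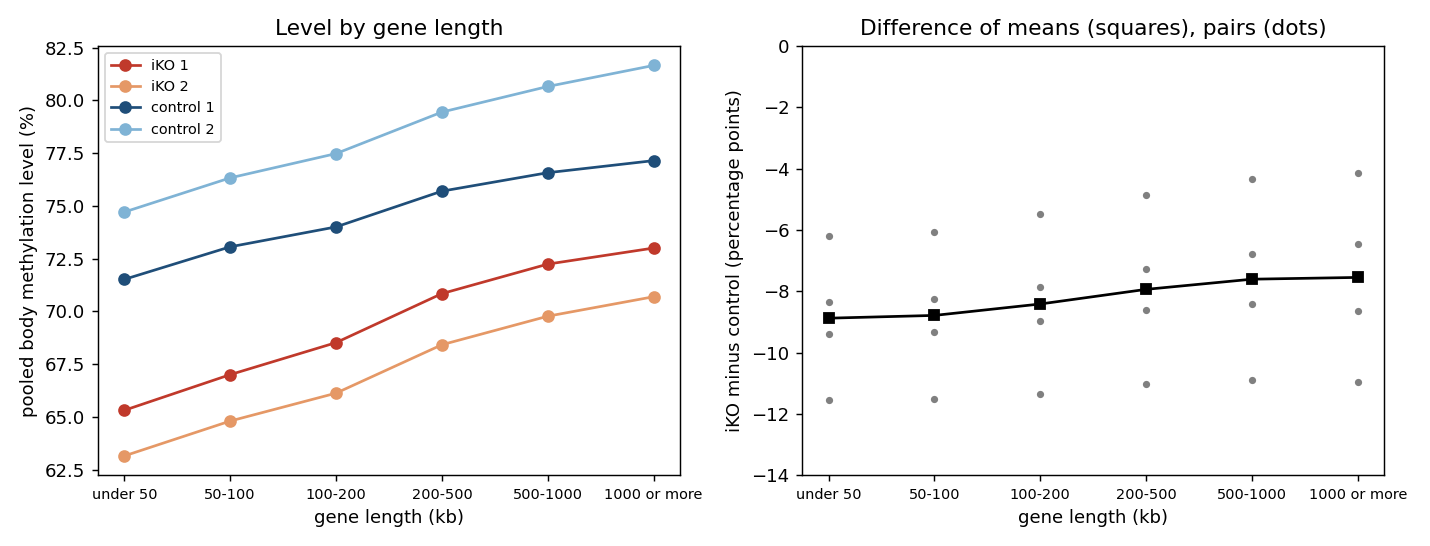
Left, pooled body methylation level in percent by gene length class in kb, 1 line per library. Right, iKO minus control in percentage points for the same classes, with the difference of means as squares and the 4 single iKO-control pairs as grey dots; levels rise with length in all 4 libraries and the mean difference narrows from -8.87 to -7.55 points.

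A relative test asked which bodies moved more or less than the median body of the same library, on the logit scale. Of the 212 members, 169 had a smaller loss than the median body, against 52.5% of all bodies, and 43 a larger one. The median member differed by 0.03 logit units from it, with an SD of 0.042 between members and 0.188 over all bodies. On the same scale the pooled gap between long and other bodies differed by 0.005 (pooled SD 0.035). The count of 169 thus goes with a small offset. After Benjamini-Hochberg adjustment over all bodies (limma), 4 members were called, all with a smaller loss (1.89%, against 0.63% of all bodies). They were the 3 overlapping protocadherin models, at 0.20 to 0.21 ± 0.03 (SE), and Nfia, at 0.15 ± 0.04 (adjusted p = 0.0426). At an unadjusted p under 0.05 there were 25 members (11.8%, against 9.84% of all bodies), 24 of them with a smaller loss (11.3%, against 5.77%). The 4 calls were lost without iKO 1 and without iKO 2. No body of any gene was called with 5 reads in every library (17 members tested), at 20 kb from the ends or without the variance trend. Outside other annotated genes no member was called, against 0.345% of all bodies. Only 208 members were tested there, and the protocadherin models overlap other genes. Nfia kept its call in 7 of 15 alternatives and each protocadherin model in 10 of 15, while 17 members (8.02%) were called without control 1 and 28 (13.2%) without control 2. Of all bodies 2.93 and 1.39% were then called, in either direction.

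The third comparison located the difference along the bodies. In 16847 of 17304 windows of 10 kb (97.4%) the iKO mean was the lower one, near the 96.4% of all windows. Both iKO libraries lay below both controls in 12124 windows (70.1%, against 71.6% of all 252642 windows), and above both in 53. The set of all windows includes chromosome X, where no member lies. With a call at adjusted p under 0.05 and 10 points (same model, fitted on all windows), 2132 member windows were called (12.3%, against 17.3% of all windows), all lower in iKO. Member windows held fewer CpGs than all windows, with a median of 49 against 57. They were sorted by CpG number into 5 classes. Called windows were 3.78% of those with the fewest CpGs and 24.0% of those with the most, while the pooled difference hardly moved (-7.71 and -7.69 points). The lower share of calls in members was not separated from their CpG number. The count depended on single libraries: it was 84 without iKO 2 (0.485%, against 1.44% of all windows), 305 without control 2 (1.76%, against 3.97%), 908 without iKO 1 (5.25%, against 9.09%) and 4288 without control 1 (24.8%, against 29.2%).

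Magi1 had the largest share of called windows, 31 of 58, and the longest run, 9 adjacent windows from 43.9 to 133.9 kb downstream of its start. The run stood at 64.9 and 62.7% in iKO against 75.6 and 78.4% in controls, -13.2 points, and the rest of the body at 65.5 and 63.1% against 72.0 and 76.7%, -10.004 points. The run contains the models 4930511A08Rik and Gm52867. Since the run was picked by its calls, these values describe it and test nothing. Etl4 had 8 adjacent windows, 739.8 to 819.8 kb from its start, at 46.2 and 39.8% against 56.2 and 57.1%, -13.7 points, while the rest of its body stood at 64.0 and 61.5% against 70.4 and 73.8%, -9.37 points. That stretch was therefore less methylated than the rest of the body in all 4 libraries. The window after it was also low, at 38.6 and 46.3% in iKO and 51.7 and 53.0% in controls. Low windows also lay before the run. The window centred at 614.8 kb stood at 23.0 and 17.5% against 32.5 and 29.4%, and that at 634.8 kb at 34.5 and 32.3% against 43.2 and 40.1%. Others between were higher, such as that at 664.8 kb, at 67.1 and 67.4% against 74.5 and 79.2%. Annotated inner starts lie at 599.8 and 609.3 kb. Smyd3 had 24 called windows of 55 and Ptprg 24 of 67. Among genes singled out after their values were seen, Nrg3, a neuregulin, had the smallest share, 0.926% of its windows.

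**Figure D4:**
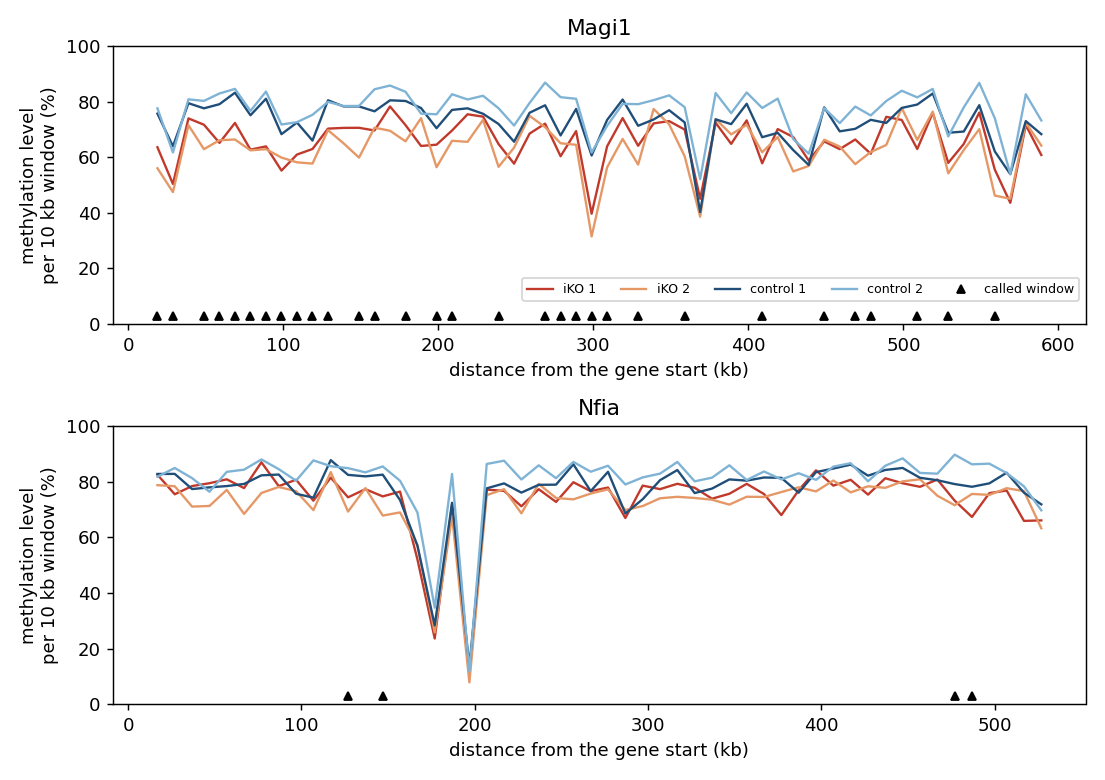
Methylation level in percent per 10 kb window (vertical axis) along Magi1 and Nfia by distance from the gene start in kb (horizontal axis), 1 line per library, with triangles under called windows. In Magi1 the iKO lines lie mostly below the control lines and 31 of 58 windows are called; in Nfia 4 of 52 are called and all 4 lines dip together near 200 kb.

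The window with the largest difference among those with at least 30 CpGs lay in Robo1, a Slit receptor (chr16:72700001-72710000). It stood at 53.3 and 38.5% in iKO and 74.9 and 76.8% in controls, -29.97 points, from 233 to 304 reads per library. A window in Npas3, a neuronal bHLH-PAS transcription factor gene (chr12:53470001-53480000), stood at 58.5 and 44.7% against 78.2 and 83.4%, -29.2 points. Another, in the metabotropic glutamate receptor gene Grm7 (chr6:111050001-111060000), stood at 39.7 and 46.1% against 67.7 and 70.3%, -26.2 points. It lost its call without iKO 1, without iKO 2 or without control 2. The fourth lay in Magi1 (chr6:93980001-93990000), at 39.7 and 31.5% against 60.6 and 61.7%, -25.6 points. With limma on logit levels, which called no member window, all 4 had an adjusted p of 0.108. The spread between the iKO libraries was large in the Robo1 and Npas3 windows (SD 10.5 and 9.76), larger than between their controls. Among the smallest called differences, just past the 10 points required, were windows in Tenm3, Lpp and Gpc6, which lost their calls under 7 alternatives each.

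Along the body the difference was level. In the 167 members whose strand is given, the 10 equal parts from start to end differed by -7.50 to -7.81 points, with the last part the lowest at -7.81. Levels were lowest in the first part, 77.9% ± 3.07 in controls and 70.4% ± 1.80 in iKO (SD, n = 2 each), and highest in the third, 80.1% ± 3.19 and 72.6% ± 1.72. Towards either end, methylation was lower: CpGs 5 to 50 kb from the nearer end stood 2.12, 2.37, 1.93 and 1.98 points below those over 200 kb from both ends in iKO 1, iKO 2, control 1 and control 2. This step was 0.292 points deeper in iKO (pooled SD 0.131, exact permutation p = 0.33, the smallest possible). Its size was -0.163 points without iKO 2 and -0.181 with genes weighted equally. With 5 reads in every library it was -3.70 points and the groups overlapped (pooled SD 10.7, exact permutation p = 1). The ends differed by -7.84 points and the middles by -7.55.

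**Figure D5:**
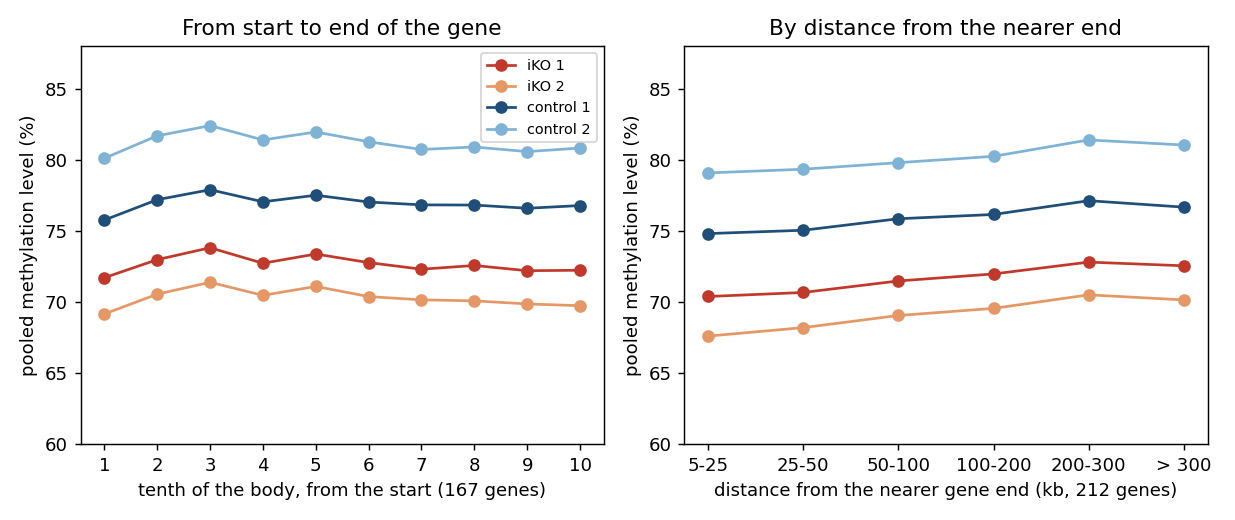
Pooled methylation level in percent, axis from 60 to 88, for each library. Left, by each of 10 equal parts of the body from the start in the 167 genes with a strand; right, by distance in kb from the nearer gene end in all 212 genes. The 4 lines run nearly parallel. On the left, levels are lowest in the first part, and on the right they are lower near the ends than in the middle.

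The starts of the same genes differed far less. The region ran from 1000 bp outside to 500 bp inside the outer annotated start of each gene (for the 45 members without a strand, at the CpG-denser end). Levels were 18.98 and 18.3% in iKO and 20.9 and 20.5% in controls. The iKO mean was 18.7% ± 0.450 and the control mean 20.7% ± 0.328 (SD, n = 2 each), -2.02 points. Start minus body was thus 5.56 points less negative in iKO (pooled SD 2.51, exact permutation p = 0.33, the smallest possible), and 3.21 points without control 2. With 5 reads in every library it was 3.25 points and the groups overlapped (p = 0.67, exact permutation). In the 103 members with a start under 20%, starts stood at 6.12% ± 0.370 in iKO and 6.43% ± 0.332 in controls, -0.315 points. In the 43 members with a start over 60% they stood at 68.1% ± 0.651 and 78.2% ± 3.72, -10.03 points. These classes use the mean over all 4 libraries at the outer end of the gene, which need not hold the promoter. In Adgrb3, Magi2 and Zfhx3, all over 60% there, annotated starts 5.1, 7.66 and 435 kb inside had means of 0, 0 and 0.735%. In Pkhd1 and Tafa1 the annotated start at the outer end itself had a mean of 78.6 and 82.3%. How many of the 43 are of either kind was not counted. The bodies behind both classes differed alike, by -7.60 and -7.55 points.

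Among RefSeq starts with 5 or more measured CpGs, level went with CG number. All 61 starts with 20 or more CG in the 300 bases were under 20% methylated, at a pooled 0.705 to 1.12% in the 4 libraries. The 41 starts with under 10 CG had a median of 51.7%, and their pooled levels were 43.6 and 37.8% in iKO and 46.1 and 55.2% in controls. Starts within 1 kb of the outer end (83) had a median of 0.424%, and those more than 5 kb inside the gene (58) a median of 15.7%. The inner starts stood at a pooled 26.2 and 23.2% in iKO and 28.1 and 32.3% in controls.

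Windows of low methylation were rare in these bodies. Only 10 of 17304 member windows were under 30% in every library (0.0578%), against 1845 of 252642 (0.730%) over the whole set. Member windows leave out 5 kb at each end of their own gene, where CpG-rich starts lie. The whole set does not, and it includes chromosome X, so the shares do not cover like sequence. Of the 10, 5 lay in the protocadherin models. The lowest lay in Nfia (chr4:97770001-97780000), at 11.8 and 7.86% in iKO and 13.7 and 11.7% in controls from 457 to 585 reads, and is the dip in the Nfia profile. A window in Ctnna2, an alpha-catenin gene, holds the start of Lrrtm1, a synaptic gene nested in it, and stood at 20.1 and 21.9% against 29.8 and 26.9%. A window in Tenm4, a teneurin gene, contains one of its own inner starts and stood at 15.6 and 20.6% against 24.2 and 20.3%. The other two lay in Zfhx3, a zinc finger homeobox gene, at 25.1 and 19.9% against 23.6 and 18.4%, and in Arhgap26, a GTPase-activating protein gene, at 17.7 and 22.5% against 28.7 and 28.9%. Among these 5 windows the groups overlapped in those of Nfia, Tenm4 and Zfhx3.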

How the data were processed

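Whole-genome bisulfite libraries of 2 iKO and 2 control samples were analysed. Per the submitters' processing notes BSMAP, Picard and mm10 were used; versions, filters and removal of duplicates are not given in the sources used here. Per the file headers, the deposited tables hold read counts per CpG (methylated and all C or T reads). The authors also deposited expected counts, in which depth is corrected by the opposite strand; these were rounded and used only as an alternative. The other 20 value columns (5 per library) were not used. Each table was matched to its sample by the genotype (KO or WT) and replicate number in its name. WT there was taken to mean the controls, which carry the floxed alleles and were grown without the drug.

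Where all 4 libraries had 1 read or more at a CpG, its reads were pooled per body and per 10 kb window, so deeper CpGs weigh more. The mean depth of 3.46 to 4.22 reads leaves single CpGs imprecise. Counts of bodies (12545) and of windows (252642) were each fitted with a quasi-binomial model of group, with dispersion moderated by limma 3.58.1 (R 4.3.3) and kept at 1 or more, an F test and Benjamini-Hochberg adjustment. For windows limma gave every window the same dispersion. The relative test used limma on logit levels (0.5 reads added) minus the library median, with a variance trend on reads. edgeR 4.0.16 was an alternative. Values per library were set against each other by exact permutation tests (two-sided). Scripts were checked on simulated data with 1 dispersion for all bodies, lower than that of the members (median 54.1). That check does not cover the members' p-values. Same-numbered libraries did not deviate together (r = -0.044 over 12545 bodies), so they were not paired.

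Named genes were the 8 longest members, the 6 lowest and 6 highest differences, the 2 longest of each list, called members and the 4 largest and 4 smallest called windows; others are marked as chosen after their values were seen or belong to windows, runs or the length threshold described, and some genes under this rule are not reported here. Members, lists and tests were chosen with earlier results of these data known.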

Additional observations from a re-analysis of the deposited data

How the results depend on the processing

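The pooled body difference kept its direction under every alternative and lay between -9.70 and -5.46 points when single libraries were left out. The wider gap of long genes over others in iKO was reversed only with 5 reads in every library (-0.101 points, 17 long bodies left), and lay at 0.477 to 1.27 points when single libraries were left out. Long bodies called (3) became 0 with 5 reads in every library (5 of 17 at an unadjusted p under 0.05), 212 without the size threshold, 0 at 20 points, 9 with genes of 300 kb or more, 0 with 1000 kb or more, and 0 to 81 when single libraries were left out; edgeR and limma on logit levels each called 3 at 10 points. Of all bodies, 1.92% were called with 5 reads, 49.8% without the size threshold, 0.399% at 20 points, 4.43 to 39.2% with single libraries left out, 27.0% with edgeR and 29.6% with limma on logit levels. Bodies called relative to the library (4) became 0 with 5 reads in every library, 0 at 20 kb from both ends (18 unadjusted), 0 outside other genes (20 unadjusted, 208 tested), 0 without the variance trend (0 unadjusted), 8 with genes of 300 kb or more, 0 with 1000 kb or more (3 unadjusted), and 0 to 28 when single libraries were left out (0.112 to 2.93% of all bodies). Windows called (2132) became 0 with 5 reads in every library (26 tested), 0 with limma on logit levels (5740 unadjusted), 47 at 20 points, 84 to 4288 when single libraries were left out, and 1841 with edgeR. Of all windows, 3.78, 0 and 0.445% were called under the first 3 of these, 1.44 to 29.2% with single libraries left out and 14.1% with edgeR. In the relative test no body of any gene was called with 5 reads, at 20 kb from both ends or without the variance trend. Outside other genes 0.345% of all bodies were. The sets of 300 and 1000 kb or more used the main fits. There 17.6% of all bodies were called, and 0.781% relative to the library. With replicate numbers as a block, bodies called stayed at 3 (1.42%), while those of all bodies fell to 9.15%. Relative calls were 3 (1.42%, against 0.582% of all bodies), with Nfia lost. Windows called were 712 (4.11%, against 8.24% of all windows). The pairs differed by -4.26 and -10.9 points, both lower in iKO. Outside chromosome 18 the pooled difference was -7.60 points. For the 3 bodies called, 8 of 42 values under alternatives lost the call, and for the 4 relative calls 23 of 60; 15 values of other named bodies gained a call and 0 were reversed. With 5 reads in every library the step from edge to middle was -3.70 points (pooled SD 10.7, exact permutation p = 1) and start minus body 3.25 points (exact permutation p = 0.67). Without a size threshold edgeR gave 186 members an adjusted p under 0.05 and limma on logit levels 110. The gap on the logit scale, the weighting by CpGs and the fit without the variance trend were added after seeing the data. A setting of 5 reads keeps 1.87% of CpGs, which limits what single CpGs can show.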
